A study of Mus musculus with 3 samples.

Results

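The RB and E2F family genes described here are 10 named genes, chosen by name and not by a cutoff on their values. Earlier results of these data were known when they were chosen. They are the pocket proteins Rb1, Rbl1 and Rbl2, the transcription factors E2f1, E2f2, E2f3, E2f4 and E2f5, and the E2F partners Tfdp1 and Tfdp2. All 10 were present among the 19744 genes of the 3 count tables. The counts come from Drop-seq, a droplet method that tags single cells with a barcode and each captured transcript with a unique molecular identifier (UMI), in 3 medulloblastomas of separate G-Smo mice on a C57BL/6 background. In G-Smo mice, hGFAP-Cre, a recombinase under a promoter active in neural stem cells and their cerebellar descendants, turns on the constitutively active Hedgehog receptor component SmoM2, and tumours arise from granule neuron progenitors. Each of the 3 mice was treated with POx-palbo, which is palbociclib, a CDK4/6 kinase inhibitor, loaded into a polyoxazoline nanoparticle. The dose was 25 mg/kg, injected intraperitoneally on 5 successive days beginning at postnatal day 10, with harvest at postnatal day 16. There is 1 group of 3 tumours, so every comparison below sets barcodes of a tumour against other barcodes of that tumour. Tumours without treatment were not used here.

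The pocket proteins bind E2F transcription factors and hold the genes that E2Fs drive in check. Cyclin D with CDK4 or CDK6 phosphorylates the pocket proteins and releases E2Fs, which then switch on genes of DNA synthesis, and palbociclib acts on that step. E2f1, E2f2 and E2f3 are known as activators and E2f4 and E2f5 mainly as repressors that work with Rbl1 (p107) and Rbl2 (p130), while Tfdp1 and Tfdp2 encode the DP subunits that E2Fs need to bind DNA. Much of this control acts on the proteins through phosphorylation and binding, which mRNA counts do not measure.

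The tables held 8827, 2330 and 9802 barcodes with 1150463, 248617 and 1324350 counts in tumours 1, 2 and 3. Depth was low: the median barcode held 84, 85 and 105 counts, and 1060, 148 and 1059 barcodes reached 200 counts. Tumour 2 stood apart with the fewest barcodes and a mitochondrial share of 11.4% of counts, against 3.97% in tumour 1 and 5.61% in tumour 3. The libraries shared 3 barcodes between tumours 1 and 2, 8 between tumours 1 and 3, and 3 between tumours 2 and 3. All 10 progenitor markers were detected in every tumour, Atoh1 and Gli1 among them, with summed levels of 3347 to 3970 UMIs per 1000000 counts (CPM). The 7 granule neuron markers summed to 3473 to 4943 CPM, the 9 astrocyte markers to 1468 to 2599 and the 12 myeloid markers to 783 to 895, with none of them at 0 in any tumour.

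Promoters of 4 of the genes contain letters that match binding words of E2F itself. RefSeq promoter windows (mouse build GRCm38.p6, 250 bases before to 50 bases after a transcription start) matched 7 of the 10 genes, with 11 windows, and Rb1, E2f4 and E2f5 had none in the table used. The windows of 4 genes are printed because Rbl1 and E2f2 had the largest ratios between cycle-high and cycle-low barcodes below, and E2f3 and Tfdp2 were the most abundant members. Each is written 5′ to 3′ on the strand of its gene, in lower case, with an E2F word in capitals. The windows are chr2:157204485-157204784 on the minus strand for Rbl1, chr4:136172024-136172323 on the plus strand for E2f2, chr13:29986014-29986313 on the minus strand for E2f3 and chr9:96258455-96258754 on the plus strand for Tfdp2.
Rbl1: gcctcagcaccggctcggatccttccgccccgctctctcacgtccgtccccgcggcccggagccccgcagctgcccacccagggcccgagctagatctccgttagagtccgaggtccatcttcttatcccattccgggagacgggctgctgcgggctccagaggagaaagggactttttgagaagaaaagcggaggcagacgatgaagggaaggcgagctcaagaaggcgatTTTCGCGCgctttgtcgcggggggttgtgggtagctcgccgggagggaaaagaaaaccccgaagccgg
E2f2: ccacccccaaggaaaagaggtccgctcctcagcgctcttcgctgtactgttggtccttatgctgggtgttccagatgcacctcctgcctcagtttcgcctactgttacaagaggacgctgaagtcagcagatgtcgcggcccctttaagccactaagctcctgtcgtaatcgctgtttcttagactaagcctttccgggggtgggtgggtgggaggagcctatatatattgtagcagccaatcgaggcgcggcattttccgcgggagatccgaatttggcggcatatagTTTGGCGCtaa
E2f3: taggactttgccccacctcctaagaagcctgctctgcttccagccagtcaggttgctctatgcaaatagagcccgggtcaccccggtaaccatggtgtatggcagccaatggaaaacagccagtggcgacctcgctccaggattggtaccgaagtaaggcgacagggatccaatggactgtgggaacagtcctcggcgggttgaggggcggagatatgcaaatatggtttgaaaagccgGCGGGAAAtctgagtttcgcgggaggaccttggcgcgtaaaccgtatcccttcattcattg
Tfdp2: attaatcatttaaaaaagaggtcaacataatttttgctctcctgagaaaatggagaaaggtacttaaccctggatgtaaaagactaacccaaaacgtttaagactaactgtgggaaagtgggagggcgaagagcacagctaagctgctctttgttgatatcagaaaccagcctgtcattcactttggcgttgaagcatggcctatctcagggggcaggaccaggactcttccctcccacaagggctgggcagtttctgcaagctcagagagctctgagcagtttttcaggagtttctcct

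The 4 words searched, on both strands, were TTTCCCGC, TTTGGCGC, TTTCGCGC and TTTGCCGC, and no hit overlapped another within a window. At least 1 of them stood in 742 of 32544 windows of all genes (2.28%), and in 702 of 26742 genes with a window (2.625%). Rbl1 held TTTCGCGC 18 bases before the start, and E2f2 held TTTGGCGC 39 bases after it. E2f3 held the reverse complement of TTTCCCGC, printed as GCGGGAAA, 11 bases before its start. Tfdp1 held the reverse complement of TTTCGCGC in both of its overlapping windows. The windows of E2f1, Rbl2 and Tfdp2, and the second windows of E2f2 and E2f3, held none of these words. Each window covers only the surroundings of an annotated start, and whether these tumours used that start was not tested. A window without a word, as for E2f1, therefore does not show that the main promoter of the gene lacks one. These are matches of letters in DNA, and no binding was measured.

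The family was detected at low levels in every tumour, and 1 gene, Tfdp2, supplied more of its UMIs than any other. The 10 genes together had 489, 120 and 650 UMIs in tumours 1, 2 and 3, which is 466 ± 35.8 CPM (SD, n = 3). Levels below are CPM of all counts of a tumour or set, and since each captured transcript gives 1 tag near its 3′ end they were not divided by transcript length. Intervals are exact 95% Poisson intervals, which cover counting error only.

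Among the DP partners, Tfdp2 had 189, 43 and 241 UMIs in tumours 1, 2 and 3, or 164, 173 and 182 CPM. That is 173 ± 8.85 CPM (SD, n = 3), so the tumours differed little. Tfdp1, the other DP gene, had 24, 2 and 32 UMIs, or 20.9, 8.04 and 24.2 CPM. Tfdp2 was therefore the more abundant DP mRNA in 3 of 3 tumours, and its lowest tumour was far above the highest of Tfdp1.

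Among the activators, E2f3 was the highest, with 79, 16 and 107 UMIs in tumours 1, 2 and 3, or 68.7, 64.4 and 80.8 CPM. E2f1, the activator also known for inducing cell death genes, had 45, 12 and 57 UMIs, or 39.1, 48.3 and 43.0 CPM. E2f2 had 20, 2 and 18 UMIs, or 17.4, 8.04 and 13.6 CPM. The order E2f3, E2f1, E2f2 held in each tumour with no overlap between their ranges. The means were 71.3 ± 8.52 for E2f3, 43.5 ± 4.59 for E2f1 and 13.0 ± 4.70 CPM for E2f2 (SD, n = 3).

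Of the repressors, E2f5 had 25, 12 and 47 UMIs in tumours 1, 2 and 3, or 21.7, 48.3 and 35.5 CPM. E2f4 had 14, 5 and 41 UMIs, or 12.2, 20.1 and 31.0 CPM. E2f4 was the member that varied most clearly between the deep libraries: its interval was 6.65 to 20.4 CPM in tumour 1 and 22.2 to 42.0 in tumour 3, and these did not overlap. E2f5 was above E2f4 in 3 of 3 tumours, with overlapping ranges.

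The 3 pocket protein genes had similar levels. Rb1, the retinoblastoma gene, had 35, 14 and 30 UMIs in tumours 1, 2 and 3, or 30.4, 56.3 and 22.7 CPM (36.5 ± 17.6, SD, n = 3). Rbl1 had 27, 3 and 47 UMIs, or 23.5, 12.1 and 35.5 CPM (23.7 ± 11.7, SD, n = 3). Rbl2, the pocket protein known from quiescent cells, had 31, 11 and 30 UMIs, or 26.9, 44.2 and 22.7 CPM (31.3 ± 11.4, SD, n = 3). Tumour 2, with the fewest counts, was highest for Rb1 and Rbl2 and lowest for Rbl1. Exons of Rb1 overlap those of Lpar6 and Rcbtb2 on the other strand, Rbl2 those of Aktip and Gm45464, and E2f5 those of 1810022K09Rik, so reads could be shared if strand was not used in counting.

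**Figure D1:**
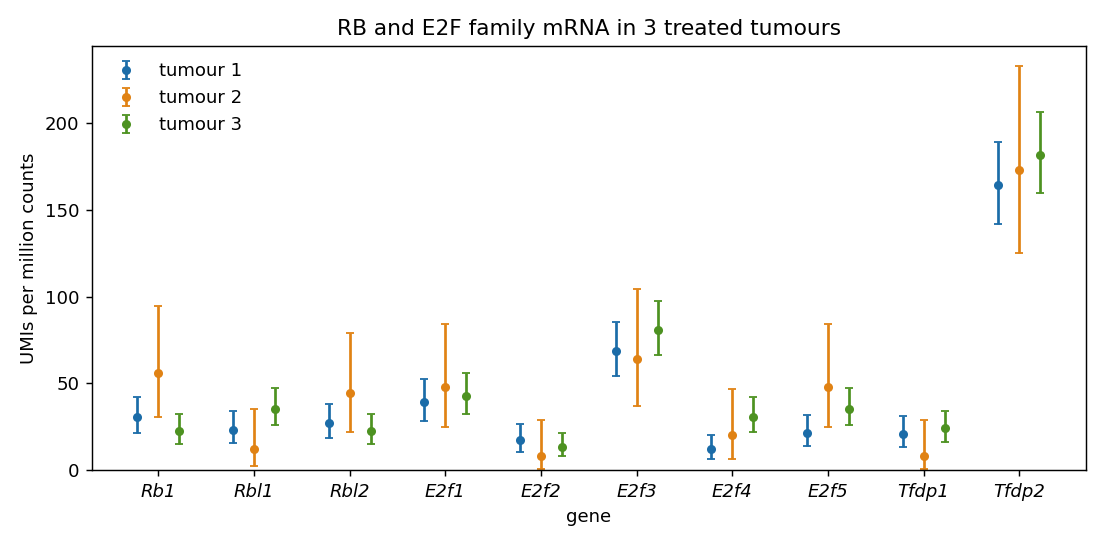
CPM of each family gene (y axis) in tumours 1, 2 and 3 (points), with exact 95% Poisson intervals as bars. Tfdp2 sits at 164 to 182 CPM, above E2f3 at 64.4 to 80.8, and the other 8 genes lie at 56.3 or below.

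Over the summed tumours the genes ran from Tfdp2 (174 CPM, interval 158 to 190) through E2f3 (74.2), E2f1 (41.9), E2f5 (30.8), Rb1 (29.0), Rbl1 (28.3), Rbl2 (26.4), E2f4 (22.03) and Tfdp1 (21.3) to E2f2 (14.7). From E2f1 downward, each neighbour in this order overlapped the next in its range over the tumours. Of the 19437 genes with at least 1 count, Tfdp2 ranked 1133, E2f3 ranked 2960 and E2f2, the lowest member, ranked 8445.

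In single barcodes the family was sparse. Of the 2267 barcodes with at least 200 counts, 355 held a UMI of any member, which is 15.7% (exact binomial interval 14.2 to 17.2%) at a median of 313 counts per barcode. By tumour this was 171 of 1060, 15 of 148 and 169 of 1059 barcodes. Tfdp2 was seen in 118 barcodes (5.21%), E2f3 in 64 (2.82%), E2f1 in 46 (2.03%), Rbl1 in 37 (1.63%) and Rb1 in 24 (1.06%). Rbl1 was seen in 16 of 1060 and 21 of 1059 barcodes of tumours 1 and 3 and in 0 of 148 in tumour 2, where the exact binomial upper limit is 2.46%.

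A barcode seldom showed more than 1 member. A single member was seen in 322 barcodes, 2 members in 32, and at least 3 members in 1. An E2F and a DP gene, the partners of a DNA-binding dimer, were seen together in 10 barcodes, and an E2F and a pocket protein in 12. Barcodes of other cell types held members too. Of 39 barcodes with myeloid marker calls, median 465 counts, 5 held a member (12.8%), with Rbl1 in 2 and Tfdp2 in 1. Of 66 barcodes with astrocyte marker calls, median 587 counts, 15 held a member (22.7%), with E2f1 in 5, E2f3 in 4 and Rbl1 in 3. The exact intervals of these shares, 4.30 to 27.4% for myeloid and 13.3 to 34.7% for astrocyte calls, both include the share of all barcodes. Whether free RNA, doublets or the cells' own mRNA gave these UMIs was not tested, so the shares do not count expressing cells.

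Member levels were also set out by the counts per barcode. Barcodes were put in 4 classes that began at 50, 100, 200 and 500 counts. Rbl1 stood at 17.7, 23.1, 32.4 and 59.6 CPM in these classes, summed over the tumours. E2f1 stood at 28.7, 38.6, 53.3 and 64.8 CPM in them. Both values were higher in each deeper class, while Tfdp2 (172, 187, 149 and 179 CPM) and Rb1 (26.5, 34.2, 28.6 and 23.3 CPM) showed no such order.

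**Figure D2:**
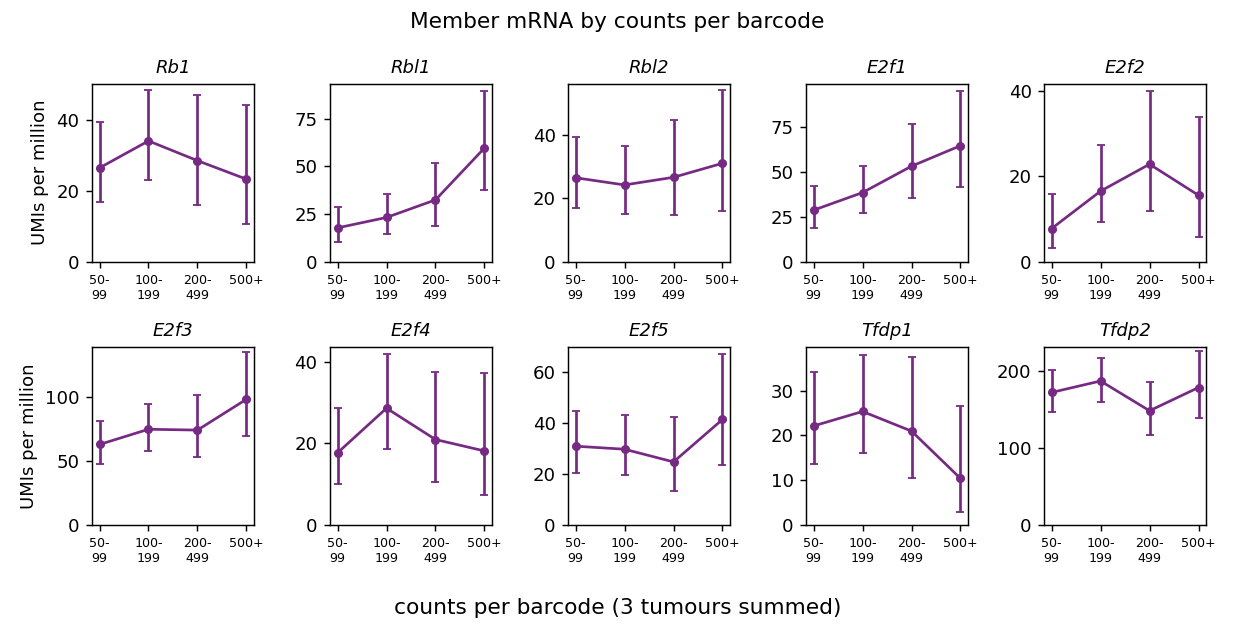
CPM of each family gene (y axis, scaled per gene) by counts per barcode (x axis), the 3 tumours summed, with exact 95% Poisson intervals as bars. Rbl1 stands at 17.7 CPM in the shallowest class and 59.6 in the deepest and E2f1 at 28.7 and 64.8. The intervals of these classes do not overlap for Rbl1 and overlap for the other 9 genes.

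Barcodes of at least 200 counts were compared with barcodes of 50 to 99 counts within each tumour with edgeR's quasi-likelihood test, tumour as a block. None of the 10 members passed at an adjusted p of 0.05, against 7.44% of the 11532 genes tested (2.18% higher and 5.26% lower). Rbl1 had 16, 0 and 24 UMIs in the deeper barcodes of tumours 1, 2 and 3, against 8, 2 and 6 in the shallower ones. Its log2 fold change was 1.12 (SE 0.54, Benjamini-Hochberg adjusted p = 0.216, edgeR), and it was higher in 2 of 3 tumours. E2f1 had 28, 1 and 24 UMIs against 12, 6 and 8, a log2 fold change of 0.90 (SE 0.46, adjusted p = 0.243, edgeR). These were the 2 members with an unadjusted p under 0.05, and DESeq2 gave an adjusted p to 1 of the 10, which did not pass. Tumour 2 ran the other way for both genes: without it Rbl1 changed by 1.31 (adjusted p = 0.0448, edgeR) and E2f1 by 1.21 (adjusted p = 0.0356, edgeR), and both passed. Over the other alternatives the adjusted p was 0.157 to 0.97 for Rbl1 and 0.175 to 0.958 for E2f1.

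The main comparison asked whether the family varied with the cell cycle among barcodes of the treated tumours. Barcodes called for other cell types were kept in it. Barcodes of at least 200 counts and at most 10% mitochondrial counts (963, 93 and 925 in tumours 1, 2 and 3) were thinned to 200 counts and ranked by their UMIs of S phase and G2/M phase genes, with ties broken at random. Within each tumour, a cycle-high, a middle and a cycle-low set of near-equal size were formed, of 321, 31 and 308 barcodes for the cycle-high and as many for the cycle-low set. None of the 10 members was used for ranking. Before thinning, the cycle-high barcodes held median counts of 372, 264 and 320.5, against 337, 247 and 300.5 in the cycle-low sets. The part of depth was not tested beyond leaving out the deepest 5% of barcodes. Raw counts were summed per set and tumour and tested with edgeR.

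Rbl1 was the member with the largest ratio of cycle-high to cycle-low levels and the only 1 of the 9 tested that passed. It had 8, 0 and 15 UMIs in the cycle-high sets of tumours 1, 2 and 3, against 0, 0 and 2 in the cycle-low sets. Tumours 1 and 3 were both higher, and tumour 2 had no Rbl1 UMI in either set. Summed, this was 81.3 against 7.74 CPM, a ratio of 10.5 (exact 95% interval 2.59 to 91.9 from counting alone). The log2 fold change was 3.21 (SE 1.02, Benjamini-Hochberg adjusted p = 0.0465, edgeR), where 3.77% of the 8016 genes tested passed, 2.25% as higher and 1.52% as lower. From the cycle-low through the middle to the cycle-high set, Rbl1 stood at 7.74, 46.5 and 81.3 CPM.

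The Rbl1 call rested on few UMIs and changed with the random seed, which sets both the thinning and the order of ties, while its direction did not. Over 20 further random seeds, an alternative added after the data had been seen, its log2 fold change was positive in 20 of 20 (1.63 to 3.32, median 2.38), with 22 to 29 UMIs in cycle-high barcodes and 2 to 7 in cycle-low ones. It passed in 5 of the 20 (adjusted p 0.0231 to 0.444, edgeR). Without tumour 1 its adjusted p was 0.999 (log2 fold change 2.58), and without tumour 3 it had too few counts to be tested. Without tumour 2 it was 0.0129 (log2 fold change 3.27).

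The activators had more UMIs in the cycle-high sets, but none passed. E2f2 had 6, 1 and 2 UMIs in the cycle-high sets of tumours 1, 2 and 3, against 1, 0 and 0 in the cycle-low sets, higher in 3 of 3 tumours. Its ratio was 8.22 (exact interval 1.14 to 360) and its log2 fold change 2.75 (SE 1.40, adjusted p = 0.457, edgeR). That value is above all those of the 17 further seeds in which E2f2 could be tested, 0.95 to 2.27 with a median of 1.79. E2f3 had 16, 1 and 16 UMIs against 5, 0 and 13, a log2 fold change of 0.78 (SE 0.55, adjusted p = 0.718, edgeR). The excess of E2f3 came mostly from tumour 1. E2f1 had 13, 1 and 4 UMIs against 4, 0 and 7, a log2 fold change of 0.56 (SE 0.73, adjusted p = 0.927, edgeR), with tumours 1 and 3 in opposite directions.

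Tfdp2 had 31, 1 and 25 UMIs in the cycle-high sets of tumours 1, 2 and 3, against 18, 0 and 14 in the cycle-low sets, higher in 3 of 3 tumours. Its log2 fold change was 0.72 (SE 0.41, adjusted p = 0.559, edgeR), and its ratio from counts alone was 1.63 (exact interval 1.04 to 2.59). Tfdp1 had 8 UMIs, against 6. The repressor E2f5 had 15 against 8 (log2 fold change 0.76, adjusted p = 0.895, edgeR) and E2f4, with 5 against 1, had too few counts for the test. In the middle set, E2f5 had 3 UMIs and E2f4 had 12.

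The other pocket proteins were near equal between the sets. Rb1 had 3, 0 and 5 UMIs in the cycle-high sets, against 5, 1 and 1 in the cycle-low sets (log2 fold change 0.08, SE 0.98, adjusted p = 0.988, edgeR). Rbl2 had 6, 0 and 3 UMIs against 2, 1 and 3 (log2 fold change 0.39, SE 0.99, adjusted p = 0.968, edgeR). With SEs this large, moderate changes of these genes were not detectable at this depth. DESeq2 gave an adjusted p to 2 of the 9 members, E2f3 and Tfdp2, and called neither (0.999 each).

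**Figure D3:**
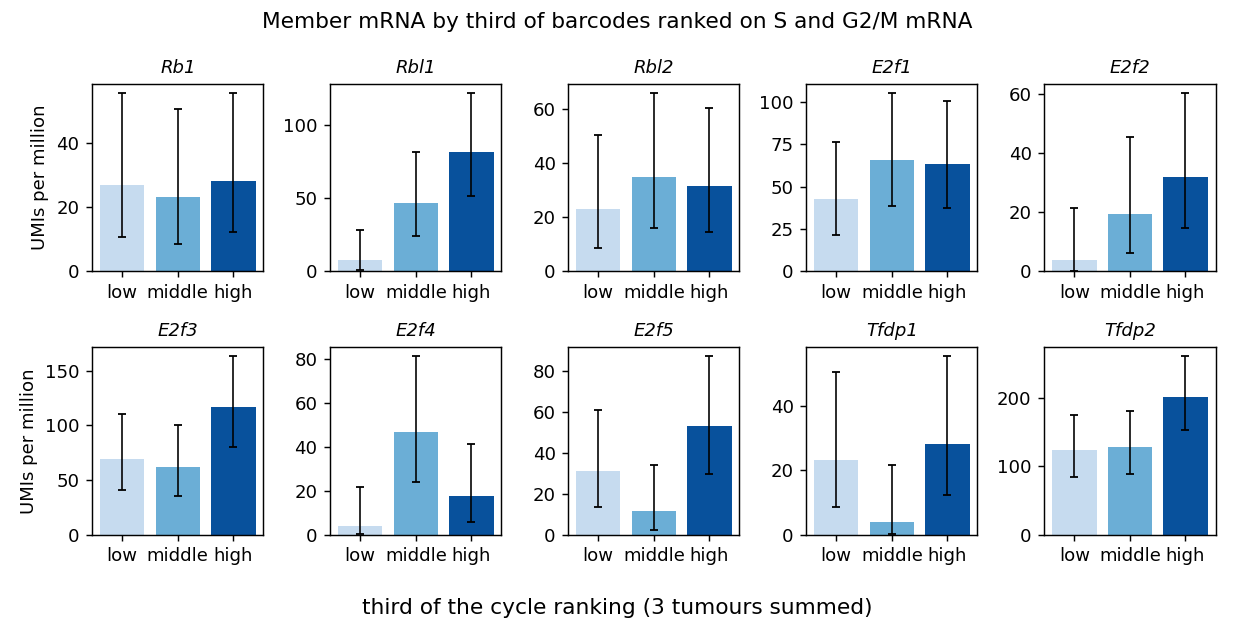
CPM of each family gene (y axis, scaled per gene) in the cycle-low, middle and cycle-high sets, the 3 tumours summed, with exact 95% Poisson intervals as bars. Rbl1 stands at 7.74, 46.5 and 81.3 CPM and E2f2 at 3.87, 19.4 and 31.8, while Rb1 lies between 23.3 and 28.3. Tfdp2 stands at 124, 128 and 201. The middle set is the highest for E2f1, Rbl2 and E2f4 (3.87, 46.5 and 17.7 for E2f4). It is the lowest for Rb1, E2f3, Tfdp1 and E2f5 (31.0, 11.6 and 53.0 for E2f5).

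Summed, the 10 members had 185 UMIs in the cycle-high sets, against 92 in the cycle-low sets, or 654 against 356 CPM. By tumour this was 653, 530 and 664 CPM in the cycle-high sets, against 291, 211 and 448 in the cycle-low sets, higher in 3 of 3 tumours. In tumour 2 the values rest on only 5 against 2 UMIs. Without Tfdp2 the other 9 members had 128 against 60 UMIs. Pocket proteins had 40 against 15, activators 60 against 30, repressors 20 against 9 and DP partners 65 against 38. Astrocyte markers made up 0.124%, 0.0847% and 0.122% of counts in the cycle-high sets of tumours 1, 2 and 3, against 0.495%, 0.674% and 0.77% in the cycle-low sets. Granule neuron markers made up 0.153%, 0.339% and 0.216%, against 0.478%, 0.432% and 0.593%. Myeloid markers made up 0.0276%, 0.0318% and 0.0208%, against 0.117%, 0.811% and 0.222%. Erythroid markers made up 0.00741%, 0.0953% and 0.0288%, against 0.0117%, 0.0211% and 0.026%, and were higher in the cycle-high sets of tumours 2 and 3. Their part in the result was not tested beyond leaving out barcodes called for another type, after which Rbl1 changed by 3.14 (adjusted p = 0.0558, edgeR).

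**Figure D4:**
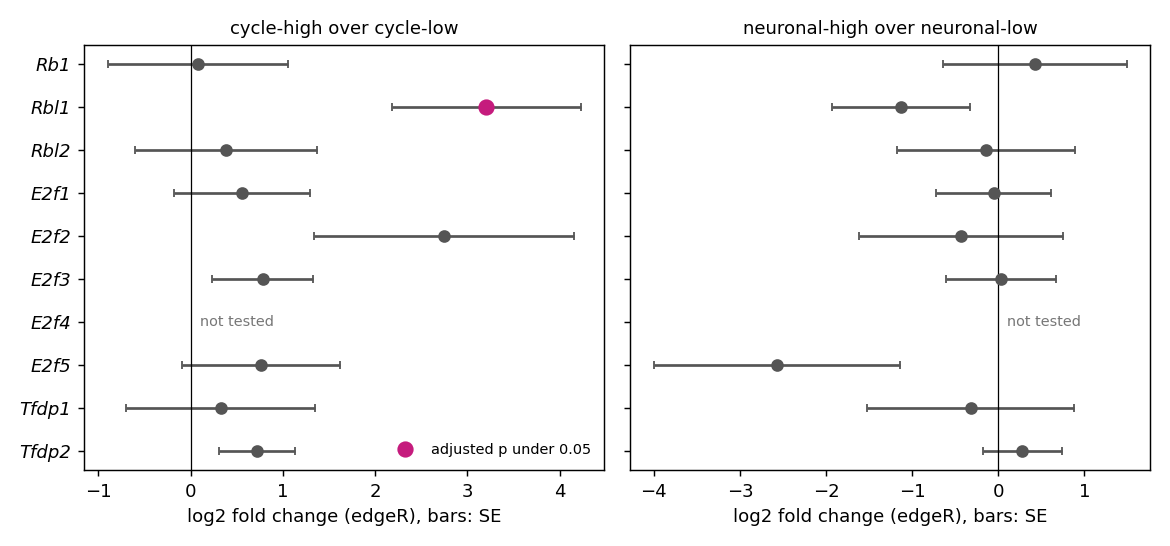
Log2 fold changes of the family genes (points, bars are standard errors from edgeR) for cycle-high over cycle-low sets on the left and neuronal-high over neuronal-low sets on the right. Rbl1 at 3.21 on the left is the single coloured point that passed at an adjusted p of 0.05, and no point passed on the right.

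Genes that work with the family or are controlled by it were followed through the same sets. Of 32 E2F target genes that were not used for ranking, 30 were tested, 7 rose, 0 fell and 23 did not pass. Over all 8016 genes tested, 2.25% rose and 1.52% fell. The median log2 fold change of the list was 1.39, against 0.00 over all genes tested. The sets were ranked on genes of the same kind, such as Mcm5, Pcna and Rrm2. A rise of this list therefore follows largely from how the sets were formed, and it is not separate evidence on the family. The same holds for the other cell cycle genes followed through these sets. Mcm7, a subunit of the replicative helicase, rose by 1.70 (129 against 38 UMIs), and Brca1, a DNA repair gene, by 2.74 (31 against 4). Tk1, the thymidine kinase of S phase, had 29 UMIs in the cycle-high sets and 0 in the cycle-low sets, at least 8.82-fold higher with the floor of 3 counts over the group. The others that rose were Brca2 (1.41), Chaf1a (1.49), Lig1 (1.18) and Lmnb1 (1.30). DESeq2 gave an adjusted p to 13 of the list and called 1.

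Of 22 D cyclin and CDK regulators, 19 were tested, 4 rose and 0 fell, with a median of 0.74. Cdk6, a kinase that palbociclib inhibits, rose by 1.30 (127 against 50 UMIs), and Ccnd1 and Ccnd2, the D cyclins of this lineage, rose by 0.79 (355 against 191) and 0.53 (605 against 398). Cdk4, the other kinase that palbociclib inhibits, had 139 against 122 UMIs (log2 fold change 0.07). Cdkn1b, the inhibitor p27, had 100 against 86 (0.13), and neither of these genes passed. Ccna2, the cyclin of S phase and G2 and an E2F target itself, rose by 2.28 (49 against 9). Cdkn2c, the CDK4/6 inhibitor p18, had 17 against 5 UMIs (log2 fold change 1.58, adjusted p = 0.574, edgeR). DESeq2 gave an adjusted p to 9 of these and called 0.

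Of 11 atypical E2F and DREAM complex genes, 8 were tested and 0 passed with edgeR, although 4 had an unadjusted p under 0.05, and DESeq2 called 0 of the 1 with an adjusted p. E2f7 and E2f8 encode atypical E2Fs that repress E2F targets without a DP partner. E2f7 had 29 UMIs in the cycle-high sets, against 6 in the cycle-low sets (ratio 4.41, exact interval 1.80 to 13.0, adjusted p = 0.106, edgeR), and E2f8 had 11 against 1 (ratio 10.04, exact interval 1.46 to 432, adjusted p = 0.293, edgeR). Of 9 chromatin partners of RB, 1 rose, the maintenance DNA methyltransferase Dnmt1 (1.74, 125 against 34 UMIs), and DESeq2 called 0 of the 8 with an adjusted p.

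S-rich barcodes were next compared with G2/M-rich barcodes, that is, those with more S than G2/M phase UMIs and the reverse, with at least 2 of the leading kind. No member passed with edgeR: 0 of 9 were called, 0 had an unadjusted p under 0.05, and DESeq2 called 0 of the 2 with an adjusted p. Few genes of any kind were called, 0.281% of 7461 (0.0268% higher and 0.255% lower), and the median gene was at a log2 value of -0.18, so S-rich values lie relative to that shift. There were 162, 10 and 114 S-rich barcodes in tumours 1, 2 and 3, against 362, 48 and 467 G2/M-rich ones. Tfdp2 had 23, 0 and 6 UMIs in the S-rich sets, against 21, 1 and 29 in the G2/M-rich sets. Summed, this was 261 against 140 CPM, a ratio of 1.87 (exact interval 1.14 to 3.00 from counting alone). The Tfdp2 log2 fold change was 0.64 (SE 0.54). Without tumour 1 the log2 value was -0.20. E2f4 and E2f5 together had 3 UMIs in the S-rich sets, against 31 in the G2/M-rich sets (27.0 against 85.0 CPM, ratio 0.317, exact interval 0.0621 to 1.02). Rbl1 had 5, 0 and 0 UMIs against 8, 0 and 15, with a log2 value of -0.63 (SE 0.91), and E2f1 had 12 against 24 in all, with a log2 value of 0.50 (SE 0.72).

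Ranking the same barcodes by neuronal mRNA gave neuronal-high and neuronal-low sets of the same sizes, and no member passed the test between them. With few UMIs for most members, moderate changes could have been missed. With edgeR, 0 of 9 members passed and 0 had an unadjusted p under 0.05, against 2.27% of 7936 genes called (1.3% higher and 0.97% lower), and DESeq2 called 0 of the 1 with an adjusted p. Rb1 had 5, 0 and 2 UMIs in the neuronal-high sets of tumours 1, 2 and 3, against 4, 0 and 2 in the neuronal-low sets. Rbl1 had 1, 0 and 6 against 8, 0 and 10 (log2 fold change -1.13, SE 0.81, adjusted p = 0.759, edgeR). Tfdp2 had 39 UMIs in each (log2 fold change 0.28, SE 0.46), E2f3 had 17 against 19 and E2f1 had 14 against 17.

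The repressors had the lowest ratio in this comparison. E2f5 had 1, 0 and 0 UMIs in the neuronal-high sets of tumours 1, 2 and 3, against 4, 0 and 5 in the neuronal-low sets (log2 fold change -2.57, SE 1.43, adjusted p = 0.557, edgeR). E2f4 had 1, 0 and 0 against 3, 0 and 4 and was below the count minimum. Together they had 2 UMIs against 16 (8.45 against 55.8 CPM, ratio 0.152, exact interval 0.0169 to 0.644). In the middle set, E2f5 had 16 UMIs (58.0 CPM) and E2f4 had 10 (36.3 CPM). Both were above their neuronal-low levels of 31.4 and 24.4 CPM, so the repressors showed no steady order along the neuronal ranking. The E2f5 log2 value was -0.32 with another seed, -0.24 with barcodes of at least 100 counts and 0.0325 with no mitochondrial limit. Astrocyte markers made up 0.142%, 0.0456% and 0.14% of counts in the neuronal-high sets, against 0.412%, 0.525% and 0.706% in the neuronal-low sets, and their part was not tested.

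Of the gene lists, 29 E2F targets were tested between neuronal sets and 0 passed with edgeR (8 with an unadjusted p under 0.05, and DESeq2 called 0 of 9), with a median of -0.73, against -0.08 over all genes. Ccnd1 was the only gene of the 4 lists that passed: it fell by 0.72 on the log2 scale (173 UMIs in neuronal-high sets, 331 in neuronal-low sets, adjusted p = 0.0102, edgeR). Cdk6 had 54 against 106 UMIs (log2 fold change -0.76, adjusted p = 0.312, edgeR). Neuronal-high sets also held fewer S and G2/M phase UMIs than neuronal-low sets in every tumour. Per 200 counts, S phase UMIs were 0.807, 0.806 and 0.851 in tumours 1, 2 and 3, against 1.34, 1 and 1.18. For G2/M phase they were 1.56, 2.71 and 2.08, against 2.42, 3.58 and 3.25. The part of this difference in the values above was not tested.

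The family was also used the other way round, to ask what else a barcode with a member UMI contained. After thinning to 200 counts, 74, 6 and 82 barcodes of tumours 1, 2 and 3 were family-positive and 889, 87 and 843 family-free, and the members were then taken out of the table. Family-positive barcodes held 3.88, 4.50 and 4.51 S and G2/M phase UMIs per 200, against 3.21, 3.82 and 3.85 in family-free barcodes, higher in 3 of 3 tumours. The means were 4.30 ± 0.363 and 3.62 ± 0.363 (SD, n = 3), with a paired difference of 0.672 ± 0.0123. The two-sided exact sign-flip permutation test gave p = 0.25, the smallest that 3 tumours allow. S phase UMIs alone were higher in 2 of 3 tumours. Astrocyte markers made up 0.0948%, 0.135% and 0.129% of counts in family-positive barcodes, against 0.297%, 0.279% and 0.374% in family-free ones. Myeloid markers made up 0.0259%, 0.0675% and 0.0253%, against 0.0658%, 0.283% and 0.126%, and the part of either was not tested. Neuronal UMIs stood at 1.35, 0.667 and 1.67 per 200 in family-positive barcodes of tumours 1, 2 and 3, against 1.63, 1.48 and 1.70. They were lower in 3 of 3 tumours, but near equal in tumour 3. The gap was widest in tumour 2, which had 6 family-positive barcodes. The means were 1.23 ± 0.513 and 1.60 ± 0.108 (SD, n = 3), and the exact sign-flip permutation test gave p = 0.25. Gene by gene, 0 of 6916 genes passed with edgeR (298 had an unadjusted p under 0.05) and 0 with DESeq2 (35 unadjusted). The median gene lay at -0.66 on the log2 scale with TMM scaling and at -0.07 with library totals, and 296 of the 298 were lower.

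Finally, genes were ranked by how closely their levels followed those of each subgroup over the 9 sums of 3 tumours by 3 cycle sets, among 674 genes with at least 200 counts. For the summed pocket proteins these were Rsf1 (Pearson r = 0.967), Ngfrap1 (0.96) and Vps37b (0.957). For the summed E2Fs they were Parp1 (0.992), Mybbp1a (0.99) and Hmgb1 (0.99), and for the DP partners Knop1 (0.997), Ppp1r9a (0.994) and Tmem57 (0.986). The 9 sums share 3 libraries and include the 3 small sums of tumour 2, where most members had 0 or 1 UMI. Each subgroup had no UMI in at least 1 of these small sums, and the DP partners had none in the middle and cycle-low sums. On the log scale such sums lie far below the rest and weigh heavily on r. A high r therefore does not show that a gene followed the subgroup over the cycle.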

How the data were processed

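The deposited tables hold UMI counts per gene and barcode, as the authors deposited them, with no normalisation recorded. The submitters' processing notes name STAR, Cell Ranger and the build GRCh38, without versions or roles. Since 18566 of 19744 symbols (94.03%) matched mouse gene names, no gene coordinates were taken from the tables. Every barcode holds at least 50 genes. Whether counting used strand is not given in the sources used here. No 2 tumours agreed within counting error (chi-square over its degrees of freedom 4.81 to 6.84), so all were kept as separate samples.

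Counts were summed per tumour and barcode set and tested with edgeR 4.0.16 (limma 3.58.1, R 4.3.3): quasi-likelihood test, TMM scaling, genes of at least 10 counts over the 6 sums, Benjamini-Hochberg adjustment over all genes tested, threshold 0.05. DESeq2 1.42.0 was the alternative tool. Tumour was a block because both sets of a pair come from the same tumour, and 3 pairs measure the spread between these tumours. Sets were formed with scipy 1.17.1, numpy 2.4.6 and pandas 2.3.3 in Python 3.11.15 and drawn with matplotlib 3.10.9. A set is a range of ranks, not a cell type, and no cells were clustered. No doublet caller was run, and leaving out the deepest 5% of barcodes was tried in its place. A barcode was called for another cell type from at least 3 UMIs of at least 2 marker genes. Fits were tested on simulated counts. Likeness used log2(CPM + 1).

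All members were named in every comparison, with the pathway genes that passed and a fixed set of cyclins, kinases, inhibitors and atypical E2Fs where tested. The members and lists were chosen with earlier results of these data known. Alternatives changed the scaling, the count filter, the block, the barcode minimum, the mitochondrial limit, cell types, the seed and the number of sets, and left out each tumour. Ranking without thinning and 20 further seeds were added after the data had been seen.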

Additional observations from a re-analysis of the deposited data

How the results depend on the processing

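Counts of called genes depended on depth and on the deep libraries. Between cycle-high and cycle-low sets 302 genes were called, against 67 with DESeq2 (50 higher and 17 lower), 158 with no replicate block, 164 with barcodes of at least 100 counts, and 15 and 54 with 2 of the 20 further seeds. Leaving out each tumour gave 32 to 414. Between S-rich and G2/M-rich sets 21 were called (2 higher and 19 lower), 6 higher and 20 lower with library totals, 0 with no replicate block (262 at an unadjusted p under 0.05, edgeR; DESeq2 with the block called 18), 38 with barcodes of at least 100 counts, 12 without the deepest 5% of barcodes and 0 to 35 without each tumour. Between neuronal-high and neuronal-low sets 180 were called, against 28 with DESeq2 (19 higher and 9 lower), 62 with no replicate block, 45 with barcodes of at least 100 counts, 324 when ranked without thinning and 13 to 320 without each tumour. Between family-positive and family-free barcodes 0 were called, and 0 to 1 without each tumour. Between deeper and shallower barcodes 858 were called (251 higher and 607 lower), 394 higher and 578 lower with library totals, and 308 with DESeq2, 208 with no replicate block, 214 with barcodes of at least 100 counts and 16 to 1549 without each tumour. The causes were not tested.

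In barcodes of at least 500 counts the levels were 59.6 CPM for Rbl1, 64.8 for E2f1, 98.5 for E2f3 and 10.4 for Tfdp1. Over all barcodes, Tfdp2 stood at 184 CPM of non-mitochondrial counts, against 174 of all counts. The Rbl1 call between cycle sets held with library totals, with genes of at least 1 count, without tumour 2 and when ranked without thinning (adjusted p 0.0129 to 0.0455, edgeR). It was lost with no replicate block (0.0753), with barcodes of at least 100 counts (0.551), without barcodes of other cell types (0.0558), without the deepest 5% of barcodes (0.0907), with no mitochondrial limit (0.0542), with another seed (0.159), with 2 sets in place of 3 (0.178) and without tumour 1 (0.999). DESeq2 gave it no adjusted p. With genes of at least 30 counts it was not tested.

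Small log2 values of the other members changed sign with several settings, and none of these passed in either direction. Between cycle sets, Rb1 was at -0.17 with DESeq2, -0.57 with another seed and -0.14 when ranked without thinning. With barcodes of at least 100 counts, Rb1 was at -0.62, Rbl2 at -0.15, E2f1 at -0.10 and Tfdp1 at -0.86. Without barcodes of other cell types, Rb1 was at -0.16, Rbl2 at -0.38 and Tfdp1 at -0.16. Without the deepest 5%, Rb1 was at -0.59, Rbl2 at -0.94 and Tfdp1 at -0.067. With no mitochondrial limit, Rb1 was at -0.56 and Rbl2 at -0.92, and with 2 sets in place of 3 at -0.24 and -0.013. Without each tumour E2f1 ran from -0.48 to 1.72.

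Between S-rich and G2/M-rich sets, E2f2 was at 0.13 with library totals and 0.049 with no replicate block. With barcodes of at least 100 counts, Rb1 was at -1.60, Rbl2 at -0.075, E2f1 at -0.21, E2f3 at 0.037 and Tfdp2 at -0.28. Without barcodes of other cell types, E2f1 was at -0.21, E2f2 at 0.18 and E2f4 at 0.66. E2f4 was at 0.28 without the deepest 5%, and with no mitochondrial limit it was at 0.85 and Tfdp2 at -0.22. Rbl1 was at 0.10 with another seed. Without each tumour Rbl1 ran from -5.11 to 0.53, E2f4 from -1.18 to 0.24 and Tfdp2 from -0.20 to 1.08, and E2f2, testable only without tumour 2, was at 0.22.

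Between neuronal sets, Rbl2 was at 0.019 and E2f3 at -0.14 with DESeq2, and E2f1 at 0.004 with genes of at least 30 counts. With barcodes of at least 100 counts, Rb1 was at -0.073, E2f2 at 0.38, E2f3 at -0.099, Tfdp1 at 0.51 and Tfdp2 at -0.041. Without barcodes of other cell types, Rb1 was at -1.14, Rbl2 at 0.51, E2f2 at 0.011, E2f3 at -0.26 and Tfdp2 at -0.36. Without the deepest 5%, Rb1 was at -0.071, Rbl2 at 0.18 and E2f3 at -0.59. With no mitochondrial limit, Rbl2 was at 0.14, E2f3 at -0.37, E2f5 at 0.033 and Tfdp2 at -0.12. With another seed, Rb1 was at -0.45, Rbl2 at 0.47 and E2f3 at -0.62. With 2 sets in place of 3, Rbl2 was at 0.19 and Tfdp1 at 0.36, and ranked without thinning E2f1 was at 0.18 and E2f3 at -0.043. Without each tumour E2f1 ran from -0.26 to 0.099, E2f3 from -1.65 to 1.30 and Tfdp2 from -0.015 to 0.88.

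Between deeper and shallower barcodes, Rbl2 was at -0.095, E2f4 at -0.085 and E2f5 at -0.0097 with DESeq2. With genes of at least 1 count E2f4 was at -0.04 and E2f5 at -0.016. With no replicate block Rb1 was at -0.083, Rbl2 at -0.035 and E2f5 at -0.059. With barcodes of at least 100 counts E2f5 was at -0.028 and Tfdp2 at 0.0079, and without the deepest 5% E2f5 was at -0.066. Without each tumour Rb1 ran from -0.38 to 0.58, Rbl2 from -0.45 to 0.21, E2f4 from -0.23 to 0.082 and E2f5 from -0.063 to 0.11.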
